A study of Mus musculus with 28 samples.

Results

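A set of 331 genomic sites was examined at which Oct4 was called by chromatin immunoprecipitation followed by sequencing (ChIP-seq) in both Spen KO libraries and in neither WT library. The sites were selected on the deposited Oct4 peak lists alone. They are the peaks of the Spen KO replicate 2 list on the 19 autosomes that overlapped a peak of Spen KO replicate 1 by at least 1 bp and no peak of either WT replicate. They made up 331 of 2966 autosomal peaks of that list, or 11.2%, and are called the KO-pair sites here. They were set against 964 common sites, which were called in both Spen KO libraries and in WT replicate 2, and against 902 peaks called in Spen KO replicate 2 alone.

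The cells were HATX mouse embryonic stem cells (mESCs), a haploid line of mixed genomic background that carries an inducible Xist transgene, grown in serum and LIF. The WT cells were labelled HATX_WT and the Spen KO cells were 1 clone (clone 2), so the knockout and the clone cannot be told apart. Oct4, H3K27Ac, H3K4me3 and H3K9me3 were each profiled in 2 libraries per genotype from fixed cells, among 28 samples of which 12 were inputs. The study describes the replicates as technical, so the spread between them may not include the spread between cultures.

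Oct4, encoded by Pou5f1, is a POU-domain transcription factor that binds the octamer sequence, often beside Sox2 on a joint Oct4-Sox2 element, and maintains pluripotency. Its sites in mESCs lie mostly in enhancers, where H3K27Ac marks active elements, while H3K4me3 marks active promoters and H3K9me3 marks silenced chromatin. Spen is an RNA-binding repressor that recruits histone deacetylase complexes and is needed for silencing by Xist. Of 7 pluripotency marker genes found in the annotation, among them Nanog, Esrrb and Zfp42, 7 carried active marks at the promoter in both genotypes, whereas 0 of 6 fibroblast and 0 of 6 primitive endoderm markers did. Of 3 neural markers in the annotation, Olig2 alone carried them, in WT.

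The reference sequence under 7 KO-pair sites shows what the set contains. Each run is 200 bp of the mm9 build, plus strand, centred on the summit in Spen KO replicate 2. Capitals mark every match, on either strand, to the octamer ATGCAAAT, to the relaxed octamer ATGCNAAT, in which N is any base, to the Oct4-Sox2 composite, to AAGGTCA, a word of the Esrrb site, and to GGGNGTGG, a word of the Klf site. The site near Vmn2r3 is shown as the strongest of the set, the site near Eif4g3 as the one with the highest fold enrichment in Spen KO replicate 2, the sites near Gm12166 and 4931429P17Rik for the composite, and the sites near Xaf1 and Prdm14 for H3K27Ac in Spen KO only. The site upstream of Sox2 is shown for its gene. The Eif4g3, Gm12166, 4931429P17Rik and Sox2 sites were chosen after their values were seen.
Vmn2r3 site, chr3:64125894-64126093: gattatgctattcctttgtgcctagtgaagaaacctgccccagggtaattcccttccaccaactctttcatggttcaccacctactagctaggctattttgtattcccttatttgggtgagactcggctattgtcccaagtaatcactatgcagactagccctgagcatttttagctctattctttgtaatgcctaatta
Eif4g3 site, chr4:137561840-137562039: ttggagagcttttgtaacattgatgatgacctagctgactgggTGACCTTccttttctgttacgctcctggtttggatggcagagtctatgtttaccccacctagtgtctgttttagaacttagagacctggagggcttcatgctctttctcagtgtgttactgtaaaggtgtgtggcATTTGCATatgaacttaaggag
Gm12166 site, chr11:45833847-45834046: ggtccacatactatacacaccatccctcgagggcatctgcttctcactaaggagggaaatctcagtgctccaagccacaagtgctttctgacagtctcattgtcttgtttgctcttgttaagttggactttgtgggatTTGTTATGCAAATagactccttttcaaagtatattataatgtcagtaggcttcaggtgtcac
4931429P17Rik site, chr13:48226111-48226310: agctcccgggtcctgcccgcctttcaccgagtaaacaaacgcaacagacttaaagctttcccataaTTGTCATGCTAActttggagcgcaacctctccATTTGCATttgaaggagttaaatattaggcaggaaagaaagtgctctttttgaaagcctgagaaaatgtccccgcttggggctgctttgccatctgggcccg
Xaf1 site, chr11:72099487-72099686: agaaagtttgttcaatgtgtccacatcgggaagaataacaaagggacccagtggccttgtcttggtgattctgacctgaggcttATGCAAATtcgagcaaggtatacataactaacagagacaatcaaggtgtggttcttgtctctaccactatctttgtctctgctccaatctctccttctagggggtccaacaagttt
Prdm14 distal site, chr1:13084692-13084891: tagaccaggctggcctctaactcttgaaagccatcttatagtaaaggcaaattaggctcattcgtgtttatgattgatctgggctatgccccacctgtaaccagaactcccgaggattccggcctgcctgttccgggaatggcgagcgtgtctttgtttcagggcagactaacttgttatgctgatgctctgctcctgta
Sox2 upstream site, chr3:34545276-34545475: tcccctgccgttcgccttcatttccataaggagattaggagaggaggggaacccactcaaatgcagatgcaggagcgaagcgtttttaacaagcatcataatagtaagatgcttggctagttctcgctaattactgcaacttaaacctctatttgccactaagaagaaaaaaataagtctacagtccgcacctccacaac

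The Vmn2r3, Prdm14 and Sox2 windows held none of the searched words. The Gm12166 window held an octamer that overlapped a composite, and the 4931429P17Rik window held a composite and a separate octamer on the minus strand. The Eif4g3 window held an octamer and an Esrrb word, and the Xaf1 window held 1 octamer.

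The 4 Oct4 libraries were not alike, and this bears on every count below. The autosomal lists held 2587 peaks in Spen KO replicate 1, 2966 in Spen KO replicate 2, 1783 in WT replicate 1 and 4045 in WT replicate 2. WT replicate 1 stood apart, since 73.4% of its summits lay within 1 kb of a transcription start site (TSS) of a protein-coding gene, against 24.9%, 19.7% and 20.2% in Spen KO replicate 1, Spen KO replicate 2 and WT replicate 2. The median GC content of its 200 bp summit windows was 63%, against 51.5%, 50% and 52.5%. The relaxed octamer was found in 5.83% of its windows, against 7.73%, 11% and 9.3%. The KO-pair sites were thus defined almost wholly by absence from WT replicate 2: leaving out WT replicate 1 gave 360 sites, while leaving out WT replicate 2 gave 1035. Read numbers were not used here, so the depth behind each list is unknown.

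How many sites met the rule depended on which library was taken as the start. From the Spen KO replicate 1 list, 385 of 2587 peaks (14.9%) overlapped Spen KO replicate 2 and no WT list. From the WT replicate 2 list, the mirror set, called in each WT library but in neither Spen KO library, held 33 of 4045 peaks (0.816%), and 2155 peaks (53.3%) were in no other list. These counts carry no test of genotype, and the part of list length and makeup in them was not tested. Lists cut to equal length gave 292 KO-pair sites, but the mirror set was not recomputed with them.

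The KO-pair sites were weaker than the common sites. Fold enrichment, the ratio of ChIP over input at the summit as MACS2 gives it, is one of the values behind each call and is given as a description. In Spen KO replicate 2 its median was 6.39 at KO-pair sites (2.5 to 11.3), 7.62 at common sites (1.75 to 23.6) and 6.04 at peaks of that library alone. In Spen KO replicate 1 the medians were 6.39 (3.44 to 11.8) at KO-pair sites and 7.34 (3.2 to 20.6) at common sites. At common sites the median fold enrichment in WT replicate 2 was 7.6. Of the KO-pair sites, 66 (19.9%) exceeded the common-site median in Spen KO replicate 2 and 29 (8.76%) did so in both Spen KO libraries, against 299 common sites (31%). Peaks were also narrower, with a median width of 229 bp against 339 bp at common sites and 170 bp for Spen KO replicate 2 alone.

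**Figure D1:**
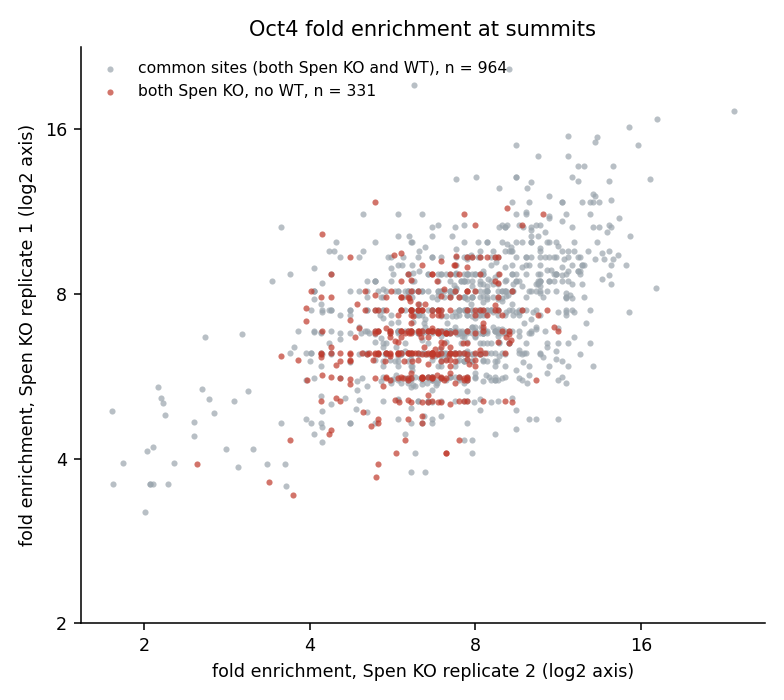
Each point is 1 site, placed by its Oct4 fold enrichment in Spen KO replicate 2 (x) and replicate 1 (y), both on log2 axes, with 331 KO-pair sites in red and 964 common sites in grey. The red points fill the lower part of the grey cloud, and none exceeds 11.3 on the x axis or 11.8 on the y axis.

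Among peaks found in both Spen KO libraries, the share with no WT peak fell with strength at the top of the range only. Sorted by fold enrichment in Spen KO replicate 2 into classes cut at the quartiles of the whole list, KO-pair sites were 77 of 236 (32.6%) in the weakest class, 76 of 208 (36.5%) and 107 of 315 (34%) in the middle classes, and 71 of 565 (12.6%) in the strongest, which ran from 7.62 to 23.6. The KO-pair sites were therefore drawn from all classes, but fewest per shared peak among the strongest. The −log10 q-value was under 3 in either Spen KO library at 34 KO-pair sites (10.3%) and at 57 common sites (5.91%), where the calling limit was 2. It was under 4 at 109 KO-pair sites (32.9%) and 169 common sites (17.5%).

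The edges of the rule were close to it. The smallest overlap that let a site in was 1 bp, at a site near Cobl (chr11:12369684-12369928) with fold enrichments of 5.25 and 6.85 in Spen KO replicates 2 and 1, and 37 sites overlapped Spen KO replicate 1 by under 50 bp. The median overlap was 133 bp. A site near Gpr133 (chr5:129776054-129776335; 5.72 and 6.03) was left out by an overlap of 11 bp with WT replicate 2, and a site near Etv4 (chr11:101648828-101649047; 6.3 and 6.23) by 14 bp. On the other side, a site near Slc45a4 (chr15:73506866-73507052) entered although a WT peak lay 21 bp away. A WT peak lay within 500 bp of 45 sites and within 1000 bp of 56, which left 275 sites with none within 1000 bp. The median gap to the nearest WT peak was 37587 bp.

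By the lower of its fold enrichments in both Spen KO libraries, the strongest KO-pair site lay 34.7 kb upstream of Vmn2r3, a vomeronasal receptor gene, with fold enrichments of 10.6 in Spen KO replicate 2 and 11.2 in replicate 1. It carried H3K9me3 in WT and none of the 3 marks in Spen KO. The next site lay 27.5 kb upstream of Aldh1b1, a mitochondrial aldehyde dehydrogenase gene (9.73 and 10.7), with H3K27Ac in both genotypes. The site 20.9 kb upstream of Fbrsl1 (9.13 and 11.5) carried H3K27Ac and H3K4me3 in both genotypes. The nearest WT peaks lay 56413, 43903 and 31239 bp from these 3 sites.

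The next sites by strength were mixed in their marks and in how near a WT peak lay. The site near Akap2, which encodes an anchor of protein kinase A (8.8 and 9.35), had a WT peak 137 bp away, and the site in the UTR of Nbr1, an autophagy receptor gene (8.68 and 8.47), had one 152 bp away. The site 3.31 kb into Ulk1, the kinase that starts autophagy (8.41 and 9.35), had one 1811 bp away. Sites near Adipor2, an adiponectin receptor gene (8.85 and 8.72), Haus1 (8.68 and 9.35) and Gm14410 (8.15 and 8.72) carried H3K27Ac in WT only, as did the Akap2 site. Sites near Kcnj12, a potassium channel gene (8.8 and 8.4), and Fam176a (9.33 and 8.1) carried none of the marks. The site 49.2 kb from Rps27a (8.15 and 9.35) lay in an H3K9me3 domain in WT only.

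KO-pair sites lay at promoters more often than common sites. A summit within 1 kb of a protein-coding TSS was found at 68 of 331 KO-pair sites (20.5%, Wilson 95% interval 16.5 to 25.2) and at 11.6% of common sites, a difference of 8.93 percentage points (95% interval 4.37 to 14). The share was 25.2% for peaks of Spen KO replicate 2 alone and 19.7% for all 2966 peaks, so the KO-pair sites were close to the list as a whole. Intervals on shares cover counting error only, since neighbouring sites are not independent and libraries vary. The difference was 8.25 points with the common sites weighted to the fold enrichment classes of the KO-pair sites, 3.86 points with lists cut to equal length, where the interval included 0 (−0.632 to 8.8), 5.12 points in the stronger 50% of both sets, again including 0 (−0.404 to 11.8), and 13.9 points without WT replicate 1. It turned to −9.06 points without WT replicate 2, where the promoter-rich WT replicate 1 list alone set which sites counted as common, and was 20.2 points without Spen KO replicate 2.

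**Figure D2:**
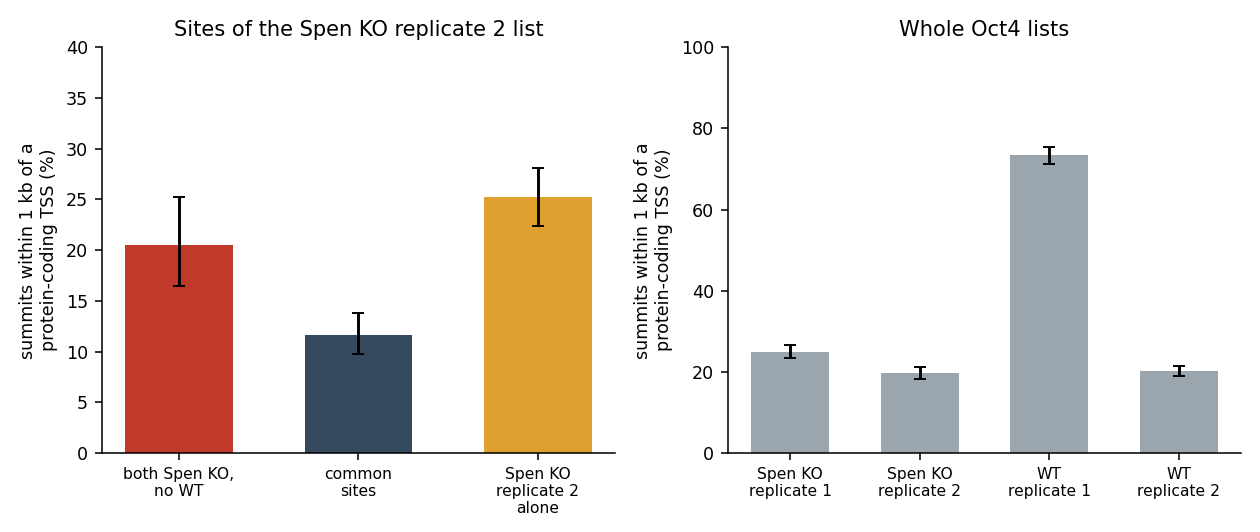
Bars give the percentage of Oct4 summits within 1 kb of a protein-coding TSS with Wilson 95% intervals, for sets of sites of the Spen KO replicate 2 list (left, y axis to 40%) and for the 4 whole autosomal lists (right, y axis to 100%). KO-pair sites reached 20.5% and common sites 11.6%, and the WT replicate 1 list stood at 73.4% beside 19.7% to 24.9% in the others.

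Most KO-pair sites were distal. The median distance to a TSS was 15.5 kb, against 18.5 kb at common sites. Summits were intergenic at 61% of KO-pair sites, intronic at 31.7%, in a UTR at 4.83% and in another exon at 2.42%, and each share differed from that of common sites by an amount whose interval included 0. The promoter and distal sites differed in base composition and marks. The 68 promoter sites had a median GC content of 66.5% and a median fold enrichment of 6.12, and 62 of them (91.2%) carried H3K4me3 and 45 (66.2%) H3K27Ac in Spen KO. The 263 distal sites had a median GC content of 46.5% and a median fold enrichment of 6.57, and 71 (27%) carried H3K4me3 and 146 (55.5%) H3K27Ac in Spen KO. H3K9me3 in WT was found at 1 promoter site and at 37 distal sites (14.1%).

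The histone marks were compared to ask whether chromatin differed between genotypes where Oct4 was called in Spen KO only. Each mark had 1 deposited list per genotype, so these shares have no replicate test between genotypes. H3K27Ac overlapped 174 KO-pair sites in WT (52.6%, 47.2 to 57.9), while it overlapped 191 of them in Spen KO (57.7%, 52.3 to 62.9), a difference of 5.14 points over the same sites (95% interval 1.39 to 8.89). Common sites gave 54.8% with the WT list and 52.8% with the Spen KO list. Peaks of Spen KO replicate 2 alone also rose, from 36.9% to 42.2%, and the whole list went from 43.9% to 45.5%. The rise was thus not particular to the KO-pair sites. Their difference changed with how the lists were cut. It was −5.17 points from the stronger 50% of each Oct4 list, −2.05 points from lists of equal length and 0.87 points without WT replicate 2. In the stronger 50% of the KO-pair sites, with the WT lists kept whole, it was 1.81 points (−3.33 to 6.95). It was 7.27 points (3.21 to 11.3) among the 275 sites with no WT peak within 1000 bp.

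Most KO-pair sites with H3K27Ac had it in both genotypes. H3K27Ac was called in both at 162 sites (48.9%), in neither at 128, in Spen KO only at 29 (8.76%) and in WT only at 12 (3.63%). Over all 2966 autosomal peaks of the list, 8.29% had H3K27Ac in Spen KO only and 6.74% in WT only. The share gained at KO-pair sites was thus close to that of the list and differed from the 6.74% of common sites by 2.02 points (−1.11 to 5.83). In a comparison that was not planned, the share with H3K27Ac in WT only was lower than the 8.71% of common sites. The difference was −5.09 points (−7.57 to −2.02). That difference was 0.416 points from the stronger 50% of each list, −1.49 points when 50% overlap was required, −1.48 points from lists of equal length and −1.25 points without WT replicate 2.

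**Figure D3:**
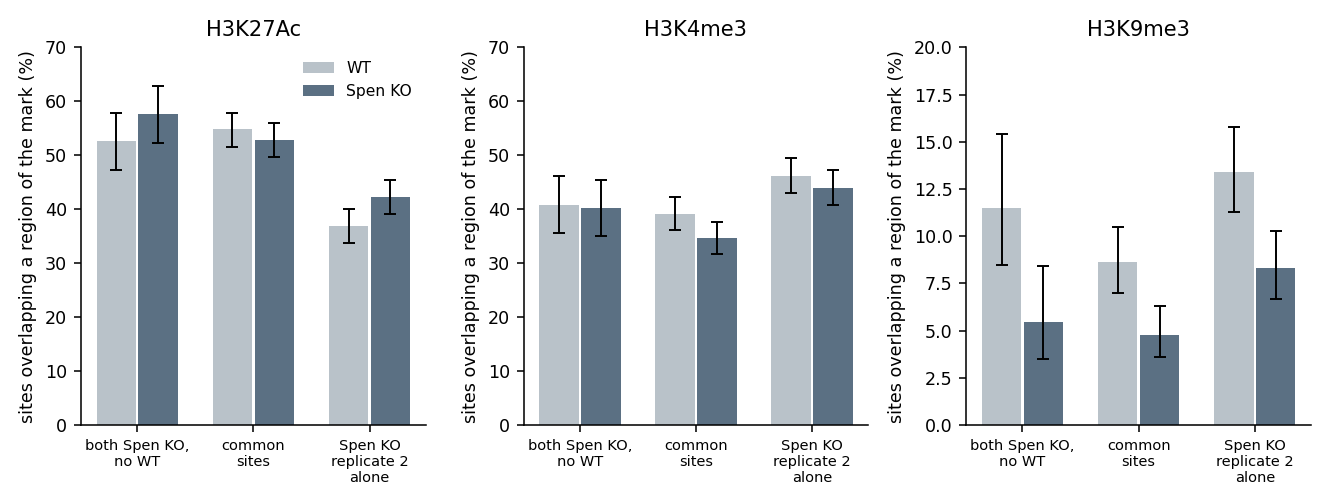
Bars give the percentage of KO-pair sites, common sites and peaks of Spen KO replicate 2 alone that overlapped a region of H3K27Ac, H3K4me3 or H3K9me3 in WT (light) and Spen KO (dark), with Wilson 95% intervals; the H3K9me3 axis ends at 20%. At KO-pair sites H3K27Ac went from 52.6% to 57.7% and H3K9me3 from 11.5% to 5.44%, and H3K9me3 was lower in Spen KO in all 3 sets.

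The 12 sites with H3K27Ac in WT only were strong for the set, with a median fold enrichment of 8.41 in Spen KO replicate 2, and 4 of them stood among the 12 strongest sites named above. The 29 sites with H3K27Ac in Spen KO only had a median of 6.12. They were distal in the main, with 2 within 1 kb of a TSS, and 11 of them carried H3K4me3 in Spen KO against 8 in WT. By the lower fold enrichment, they were led by a site in the UTR of Rhbdd2 (6.93 and 9.18), a site 83.5 kb from Nmur2, a neuromedin U receptor gene (7.09 and 6.78), a site in an intron of Nav1 (9.2 and 6.75), and a site 32.5 kb downstream of the TSS of Prdm14 (6.66 and 8.72). Prdm14 maintains naive pluripotency and primordial germ cell fate. At the Nav1 site H3K4me3 was also called in Spen KO only. A site 15.5 kb upstream of Xaf1, an apoptosis factor gene, had fold enrichments of 7.59 and 6.5 and held the octamer printed above. A site near Car2, which encodes a carbonic anhydrase, had H3K9me3 in WT only as well (7.03 and 6.5).

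The strength of H3K27Ac and H3K4me3 within regions called in both genotypes was compared by the deposited scores, with 2 values per genotype whose library numbers are not named. At 162 KO-pair sites, the H3K27Ac score relative to the regions shared by both lists was, on the log2 scale, 0.32 and 0.29 for WT, and Spen KO gave 0.52 and 0.46. Both Spen KO values were above both WT values, a difference of 0.18, with an exact permutation p of 0.333, the smallest that 2 against 2 libraries can give. At common sites WT gave 0.60 and 0.44 and Spen KO 0.79 and 0.52, which overlap. For H3K4me3 at 119 KO-pair sites, WT gave log2 scores of 0.36 and 0.35 where Spen KO gave 0.64 and 0.44, again without overlap (difference 0.18, exact permutation p of 0.333). This difference was 0.07 when 50% overlap was required and 0.08 without the first Spen KO value. At 300 common sites WT gave 0.07 and 0.07 for H3K4me3 and Spen KO 0.20 and 0.14, also without overlap.

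H3K4me3 overlapped 135 KO-pair sites in WT (40.8%) and 133 in Spen KO (40.2%), a genotype difference of −0.604 points (−3.85 to 2.64). The difference was below 0 with an interval that left out 0 when peaks within 1000 bp counted as overlapping (−4.76, −8.42 to −1.11), from the stronger 50% of every list (−4.02, −7.35 to −0.697), without WT replicate 2 (−3, −5.02 to −0.973), and without Spen KO replicate 1 (−1.78) or replicate 2 (−2.14). It was called in Spen KO only at 14 sites (4.23%), where all peaks of the list gave 2.76%, and in WT only at 16 sites (4.83%), where all peaks gave 6%. At common sites H3K4me3 was found at 39.1% in WT and 34.6% in Spen KO. The whole list gave 42% and 38.8%, and peaks of Spen KO replicate 2 alone gave 46.2% and 44%. The KO-pair sites were thus close to the list as a whole. The share in Spen KO was 5.53 points higher at KO-pair than at common sites, with an interval that included 0 (−0.447 to 11.7). The interval left out 0 with 50% overlap (6.96 points, 1.02 to 13.2), with the coordinates of Spen KO replicate 1 (7.68, 2.03 to 13.4) and without WT replicate 1 (9.24, 3.35 to 15.2), Spen KO replicate 1 (10.6) or Spen KO replicate 2 (18.3), and the value turned to −6.02 points (−12.5 to 0.266) without WT replicate 2.

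H3K9me3 was called at fewer KO-pair sites in Spen KO than in WT. It covered 38 sites in WT (11.5%, 8.48 to 15.4) and 18 in Spen KO (5.44%, 3.47 to 8.43), a difference of −6.04 points over the same sites (−9.11 to −2.98). It was −2.38 points, with an interval that included 0 (−4.98 to 0.215), when peaks within 1000 bp counted as overlapping, and −3.25 points (−4.51 to −2) without Spen KO replicate 2. Domains were present in WT only at 24 sites (7.25%) and in Spen KO only at 4 (1.21%), where all peaks of the list gave 5.43% and 0.978%. The share was also lower in Spen KO over the list as a whole, at 6.61% against 11.1%, and at common sites, at 4.77% against 8.61%. In a comparison that was not planned, the share in WT only was 2.79 points above that of common sites. The interval barely left out 0 (0.0223 to 6.29).

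Sites that had H3K9me3 in WT only were distal and often carried H3K27Ac. None of the 24 lay within 1 kb of a TSS and 1 held multi-copy sequence. H3K27Ac was called at 16 of them in WT and at 19 in Spen KO, and H3K4me3 at 0 and 1. Among common sites with H3K9me3 in WT only, 21 of 43 had H3K27Ac in WT and 32 of 43 in Spen KO. Besides the Vmn2r3 and Rps27a sites, the strongest were near AI427809 (8 and 10.7), Olfr820, an olfactory receptor gene (8 and 7.48), Klf6, a Krüppel-like factor gene 171 kb away (8.68 and 7.48), and Dmrt1, a gonadal transcription factor gene 26.2 kb away (9.73 and 7.47). The last 4 carried H3K27Ac in both genotypes. The 4 sites with H3K9me3 in Spen KO only lay near Gm826 (6.57 and 6.85), Gm9947 (5.59 and 6.78), Foxp1, a forkhead factor gene (5.13 and 6.24), and Gm10139 (3.94 and 7.13).

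None of the 3 marks was found at 28.4% of KO-pair sites in WT, as at 28.5% of common sites. In Spen KO the share was 27.5% at KO-pair sites and 35.6% at common sites, a difference of −8.09 points (−13.6 to −2.24). That difference was not planned, and it was not recomputed with other overlaps, list lengths or libraries. Peaks of Spen KO replicate 2 alone, at 28.9%, were close to the KO-pair sites, and the whole list gave 34%.

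Oct4 motifs were found at KO-pair summits more often than beside them, and so were the Esrrb and Klf words. The octamer was in 18 of 331 summit windows (5.44%, 3.47 to 8.43) and in 1.51% of windows of the same length 1000 bp away, and at common sites in 7.68% and 0.934%. The difference from common sites at the summit was −2.24 points with an interval that included 0 (−4.94 to 1.12). The relaxed octamer, which includes the exact octamer, was in 9.97% of KO-pair windows (2.42% in the flanks) and in 14.5% of common windows. The difference was −4.55 points (−8.2 to −0.306). All 2966 peaks of the list gave 5.77% for the octamer and 11% for the relaxed octamer, close to the KO-pair sites. Promoter sites, more frequent among KO-pair sites, held the relaxed octamer at 1 of 68 KO-pair sites and 10 of 112 common sites. At distal sites the shares were 12.2% (8.75 to 16.7) of KO-pair and 15.3% (13 to 17.8) of common sites, with overlapping intervals. The Oct4-Sox2 composite was in 9 KO-pair windows (2.72%, against 0.604% in the flanks) and in 2.8% of common windows. The Esrrb word was in 7.25% of KO-pair windows (2.42% in the flanks) and in 8.82% of common windows (4.36%). The Klf word was in 12.1% of KO-pair windows (6.34% in the flanks) and in 14.8% of common windows (7.88%). For both words the interval of the difference from common sites included 0, and the whole list gave 8.13% and 13.5%.

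**Figure D4:**
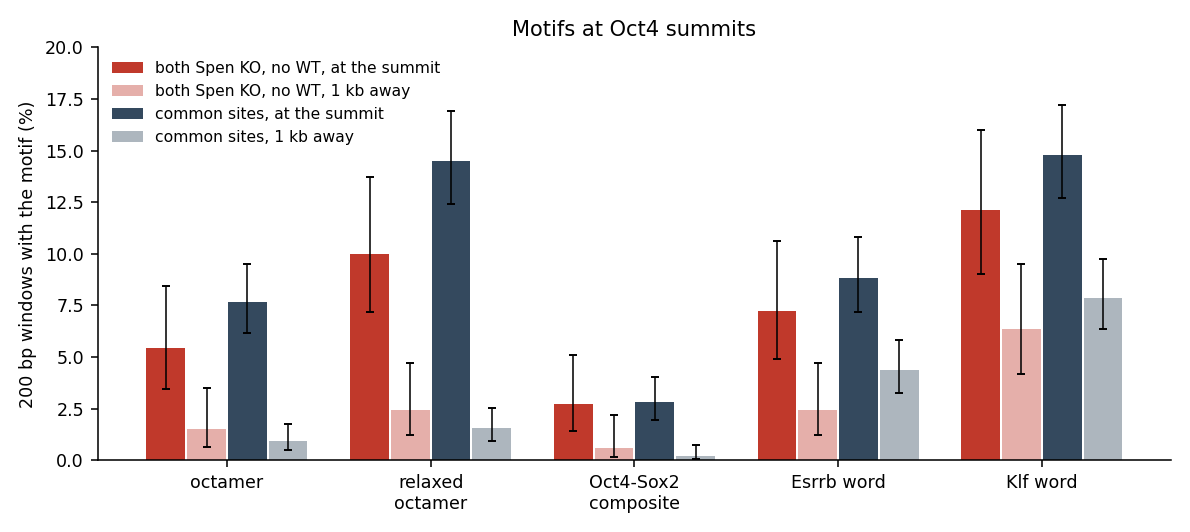
Bars give the percentage of 200 bp windows that held each motif on either strand, at the summit (solid) and 1 kb away (pale), for 331 KO-pair sites (red) and 964 common sites (blue), with Wilson 95% intervals. At KO-pair summits the relaxed octamer reached 9.97% against 2.42% in the flanks, below the 14.5% of common sites.

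The KO-pair sites with the octamer carried active marks less often than those without it, but they were few. Of the 18, H3K27Ac covered 4 in WT (22.2%) and 6 in Spen KO (33.3%, 16.3 to 56.3), and H3K4me3 covered 2 in each genotype. Of the 313 sites without the octamer, 59.1% (53.6 to 64.4) had H3K27Ac in Spen KO, where the intervals overlap. In WT, H3K27Ac covered 22.2% (9 to 45.2) with the octamer and 54.3% (48.8 to 59.7) without it, where they do not. H3K4me3 covered 11.1% (3.1 to 32.8) with the octamer in each genotype. Without the octamer it covered 42.5% (37.1 to 48) in WT and 41.9% (36.5 to 47.4) in Spen KO, again with no overlap. A TSS lay within 1 kb of 1 of the 18 and of 21.4% of the 313. With the relaxed octamer, 13 of 33 sites (39.4%, 24.7 to 56.3) had H3K27Ac in Spen KO. At common sites H3K27Ac in Spen KO covered 43.2% of 74 sites with the octamer and 53.6% of those without. The strongest octamer site by the lower fold enrichment lay 31.9 kb from Gm12166 (7.73 and 9.35), with none of the 3 marks and the nearest WT peak 35999 bp away. The site in the first part of Eif4g3, a translation initiation factor gene, had the highest fold enrichment of the set in Spen KO replicate 2, 11.3, with 6.85 in replicate 1, and no mark in either genotype. The site near 4931429P17Rik (8.26 and 6.85) had H3K4me3 in WT only. A site 602 bp upstream of Eif4e1b, an oocyte-expressed cap-binding protein gene (8.7 and 7.64), held an octamer inside H3K9me3 domains of both genotypes.

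Multi-copy sequence, in which at least 50% of the 31-base words occur at least 10 times in the genome, was rare at KO-pair sites. It was found at 8 of them (2.42%), at 0.622% of common sites, at 4.99% of peaks of Spen KO replicate 2 alone and at 2.87% of all peaks. The difference from common sites was 1.79 points (0.401 to 4.1). It was 0.121 points without WT replicate 2, and with common sites weighted to the fold enrichment classes of the KO-pair sites its interval included 0 (1.59 points, −0.195 to 3.38). These sites lay near Slc15a4, Stk17b, Sh3gl3, Cdh13, Gas8, Pdia4 and, as a pair, Ezh2, where placement of reads is least sure. For ChIP-seq the study's methods keep uniquely mapped pairs, and for repeats they also describe alignments with multiply mapping reads placed at random. Which of these gave the lists is not stated.

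Genes of the pluripotency network were among those nearest to KO-pair sites. The nearest protein-coding TSS names a position and not a target. Of 36 listed core and naive pluripotency genes, 10 were the nearest gene of 15 KO-pair sites (4.53%), against 3.94% of common sites and 2.66% of all peaks. Sox2, which pairs with Oct4, had a site 3551 bp upstream of its TSS, with fold enrichments of 9.2 in Spen KO replicate 2 and 6.85 in replicate 1 and none of the 3 marks. A second Sox2 site lay in its exon, 998 bp from the TSS, with 5.26 and 11.8, the highest value of the set in Spen KO replicate 1, and with H3K27Ac and H3K4me3 in both genotypes. Sox2 was also the nearest gene of 5 common sites, so both sites added to Oct4 peaks already shared with WT. The nearest WT peaks were 7426 and 2663 bp away.

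Other pluripotency genes gave sites of varied strength, from rank 15 (Tet2) to rank 261 (Tbx3) of 331 by the lower fold enrichment. Tet2, a 5-methylcytosine oxidase gene, held a site in an intron (8.8 and 7.91) with H3K27Ac and H3K4me3 in both genotypes. Spp1, which encodes osteopontin, had sites 935 bp upstream (5.86 and 7.48) and 6.83 kb downstream of its TSS (8.8 and 7.48), with H3K27Ac in both genotypes, no common site, and the nearest WT peaks 387161 and 395988 bp away. Dppa5a, an mESC marker gene, had a site 719 bp upstream (8.26 and 6.96) with a WT peak 241 bp away. Fgf4, a ligand that drives exit from naive pluripotency, had a site 3.32 kb upstream (5.59 and 6.85). Klf5 had a site in its intron at 649 bp (6.04 and 6.23) and another 55.6 kb away (6.66 and 8.72), the latter 770 bp from a WT peak. Prdm14 had, beside the distal site above, one 813 bp upstream (6.04 and 5.57). Tbx3 (7.62 and 5.1), Nr5a2 (7.62 and 6.23) and Zfp281 (6.66 and 7.48; 6.66 and 6.85) had sites between 54.6 and 103 kb away, and the farther Zfp281 site held an octamer.

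Fewer sites lay near genes of the other lists. Genes of the primed state and early lineages were nearest at 2 KO-pair sites (0.604%), against 1.66% of common sites and 1.31% of all peaks. These genes were the trophectoderm factor gene Cdx2 (6.16 and 7.29), where a WT peak lay 29 bp away, and Sox21 (10.8 and 7.48). TGF-beta, Nodal and BMP genes were nearest at 6 sites (1.81%), against 1.45% of common sites and 0.91% of all peaks. Of the 6 sites, 4 lay near Inhbb, which encodes the activin beta B subunit, with fold enrichments of 4.2 to 5.26 in Spen KO replicate 2. Inhbb was also nearest to 4 common sites, and the gaps from its KO-pair sites to a WT peak ran from 29 to 1105 bp. The others were Gdf3, a Nodal-related ligand gene (6.66 and 5.61), and Smad6, an inhibitor of BMP signalling (5.75 and 4.1). FGF and MAPK genes gave 2 sites (0.604%, against 0.726% of common sites and 0.641% of all peaks), near Fgfr1 (8.26 and 5.1) and Spred2 (5.78 and 6.23). Wnt genes gave 3 sites (0.906%, against 0.83% of common sites and 0.978% of all peaks). They lay near Fzd7 (6.57 and 5.65), Lef1 (6.57 and 5.08) and Tle3 (5.51 and 5.65). Genes of silencing complexes and Spen partners gave 3 sites (0.906%, against 0.519% of common sites and 0.472% of all peaks). Of these, 2 were neighbours in multi-copy sequence, 90.6 and 90.9 kb upstream of Ezh2 (3.95 and 5.57, and 3.73 and 3.44). They ranked 321 and 329 of 331 by the lower fold enrichment. The other lay in an intron of Pigl, 36.3 kb from Ncor1, a corepressor that binds Spen (5.86 and 7.91). LIF and Notch pathway genes gave 0. The shares of common sites were 0.622% for each and those of all peaks 0.405% and 0.303%, so that the set was too small to show a difference. All lists together held 31 sites (9.37%), against 10.4% of common sites and 7.69% of all peaks.

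KO-pair sites were spread over many genes. They had 305 nearest genes, 24 of which were nearest to 2 or more sites, and 85 sites shared their nearest gene with a common site. A common site lay within 10 kb of 15.7% of KO-pair sites, as of 16.1% of the common sites themselves and 10.5% of peaks of Spen KO replicate 2 alone. Some neighbours were parts of 1 enriched stretch, with 9 neighbouring pairs within 1000 bp, and the 331 sites met 328 different Spen KO replicate 1 peaks.

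The sites were uneven over chromosomes. Of Oct4 peaks found in both Spen KO libraries, 25% were KO-pair sites over all autosomes. The share was 39% on chromosome 19 (16 of 41), 34.9% on chromosome 1 (44 of 126) and 33.3% on chromosome 3 (34 of 102). It was 7.14% on chromosome 10 (3 of 42), 8.11% on chromosome 12 (3 of 37), 10.5% on chromosome 16 (2 of 19) and 13.2% on chromosome 17 (5 of 38). These last 4 chromosomes, grouped after their values were seen, gave 13 of 136 (9.56%) and the others 318 of 1188 (26.8%). Chromosome 14, counted among the others, gave 13.7% (7 of 51), close to chromosome 17. Over all autosomes, the Spen KO replicate 2, Spen KO replicate 1 and WT replicate 2 lists held 2966, 2587 and 4045 peaks. In that order, chromosome 10 held 100, 63 and 206, and chromosome 12 held 78, 74 and 157. Chromosome 16 held 54, 41 and 110, and chromosome 17 held 80, 65 and 193. Both Spen KO lists were thus short beside WT replicate 2 on these 4 chromosomes, which held 120 common sites. Short lists and a low share did not always go together, since chromosome 4 held 158, 121 and 285 with a share of 25.7% (18 of 70). On chromosomes 10, 12, 16 and 17, H3K9me3 was in WT only at 5 of the 13 KO-pair sites and at 14.2% of common sites. Elsewhere the shares were 5.97% and 3.08%. The cause was not tested. With these chromosomes left out, none of the 7 differences between KO-pair and common sites that were recomputed changed direction.

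**Figure D5:**
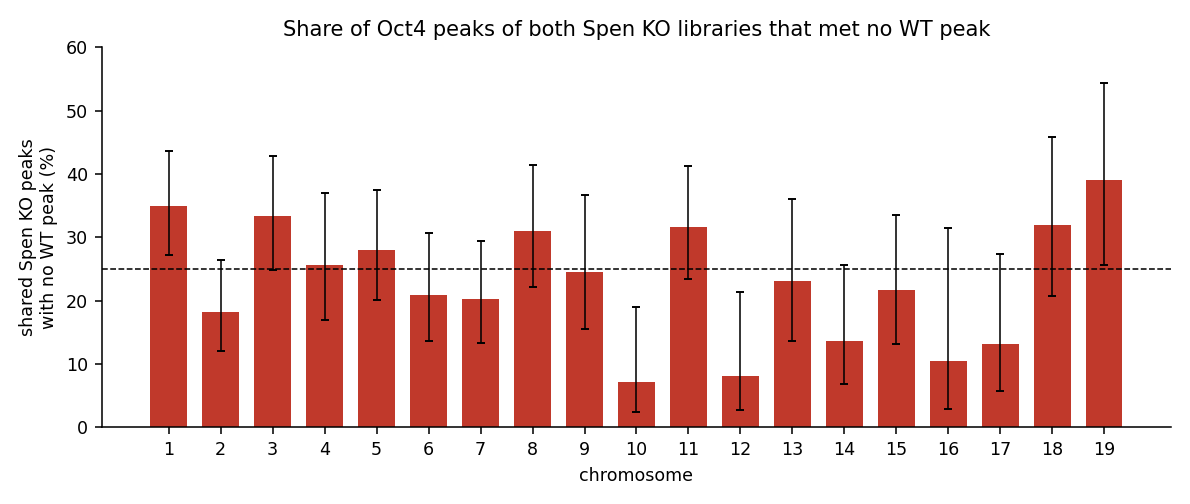
Bars give, for each autosome, the percentage of Oct4 peaks found in both Spen KO libraries that met no WT peak, with Wilson 95% intervals, and the dashed line marks the 25% of all autosomes. Chromosomes 10, 12 and 16 lie at 7.14% to 10.5%, and chromosome 19 at 39%.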

How the data were processed

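The data were peak lists of Oct4, H3K27Ac, H3K4me3 and H3K9me3 ChIP-seq in HATX mESCs, WT or Spen KO (clone 2), with groups and replicate numbers taken from the sample labels. According to their methods, the authors mapped reads to mm9 with Bowtie2, discarded duplicates found by Picard and ran MACS2 against input at a q-value of 0.01. For each Oct4 library, the authors deposited the fold enrichment (a ratio of ChIP over input), the −log10 of the p-value and of the q-value, and the summit. For H3K27Ac and H3K4me3, the authors deposited peaks kept at an irreproducible discovery rate of 0.05, with a value for each of 2 libraries whose MACS2 column is not stated. For H3K9me3, the deposited lists hold domains of 200 bp windows with a score and a p-value column of unstated kind, neither of which was used here. The authors state for ChIP-seq that uniquely mapped, concordant pairs were kept, and describe further alignments that place each multimapping read by chance. Which of these gave the lists, and whether the H3K9me3 libraries were pooled, is not stated. Weak peaks can fall on either side of a calling limit, so absence from a list is not absence of Oct4. The depth of each library is unknown.

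Peaks were shared when they overlapped by at least 1 bp, and marks were scored as overlap with the Oct4 peak. TSSs, exons and introns came from GENCODE vM1 on the mm9 build, the same sequence that gave motifs (200 bp windows at the summit, with 1 window 1000 bp away per site) and multi-copy words (31 bases). The fold enrichment in Spen KO replicate 1 was the highest of the overlapping peaks. Differences in shares carry Newcombe 95% intervals, single shares Wilson intervals and genotype differences over the same sites paired intervals. The H3K27Ac and H3K4me3 values were compared by an exact two-sided permutation over 4 libraries, on log2 of the median over sites relative to the median over regions shared by both genotypes. Overlap, interval and word-count code was tested on simulated data. The members and the gene lists were chosen with earlier results of these data known. Named sites were the 12 strongest by the lower fold enrichment, those nearest to a listed gene, up to 8 with H3K27Ac in Spen KO only, up to 6 with H3K9me3 in each genotype alone, and those of up to 10 genes with 2 or more sites. Other named sites, among them those with the composite, with multi-copy sequence or at an edge of the rule, were chosen after their values were seen. Python 3.11.15, numpy 2.4.6, pandas 2.3.3, numba 0.67.0, pysam 0.24.0 and matplotlib 3.10.9 were used.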

Additional observations from a re-analysis of the deposited data

How the results depend on the processing

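Counts and shares were recomputed with other overlaps, thresholds and list lengths, with the coordinates of Spen KO replicate 1 and without each Oct4 library, and, chosen after seeing the data, without chromosomes 10, 12, 16 and 17, without multi-copy sites, without sites near a WT peak and in the stronger 50% of both sets. Of the recomputed values, 21 moved outside the interval of the main value (counts by over 1.5 times) and 4 that had been called reversed. The other 151 did neither, but among them the H3K27Ac difference from common sites in Spen KO, with lists of equal length, was −0.0934 points against 4.9, and the H3K4me3 score, which has no interval, was 0.07 with 50% overlap and 0.08 without 1 Spen KO value, against 0.18 (log2). When peaks within 1000 bp counted as overlapping, the genotype difference at KO-pair sites was −4.76 points for H3K4me3 and −2.38 for H3K9me3, the latter with an interval that included 0. With 50% overlap, the difference from common sites in H3K27Ac in WT only was −1.49 points. From the stronger 50% of every list, 174 sites remained, the H3K27Ac difference from common sites was −2.81 points in Spen KO and 0.416 in WT only, and the genotype difference was −5.17 points for H3K27Ac and −4.02 for H3K4me3. With lists of equal length, the TSS difference was 3.86 points, that in H3K27Ac in WT only −1.48 and the H3K27Ac genotype difference −2.05. In the stronger 50% of both sets, the difference in H3K9me3 in WT was 7.46 points. Leaving out 1 Oct4 library at a time gave 360 to 1352 sites and differences from common sites of −9.06 to 20.2 points (TSS), −2.69 to 11.2 (H3K27Ac), −6.02 to 18.3 (H3K4me3), −5.1 to −1.25 (H3K27Ac in WT only) and 0.121 to 8.19 (multi-copy sequence), and an H3K27Ac genotype difference of 0.87 to 5.28 points. The lowest TSS and H3K4me3 values and the highest for H3K27Ac came without WT replicate 2, and the opposite ends without Spen KO replicate 2. The causes were not tested. No paired analysis was possible because the mark values carry no replicate number and the Oct4 results come from no test between libraries.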

Other observations

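On the X chromosome, which was left out of the sets above, the Spen KO replicate 2 list held 50 peaks, of which 12 were in both Spen KO lists and 5 in both Spen KO lists and no WT list.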
